A study of Mus musculus with 12 samples.

Results

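The 10 genes described here are the stress-response genes Ddit3, Atf4, Trib3, Asns, Fgf21, Hspa5, Xbp1, Herpud1, Dnajb9 and Hsp90b1, out of 22180 genes with a probe of their own on a mouse gene array. They were taken by name, and each had exactly 1 probe that the platform annotation pairs with that symbol alone. RNA came from liver, inguinal white fat and epididymal white fat of male mice, and each tissue had 2 arrays per genotype, 12 arrays in all. The groups were Mgl2-DTR mice and wild-type C57BL/6N mice of matched age, whose ages in weeks the labels leave out. In Mgl2-DTR mice the Mgl2 gene, which encodes the lectin CD301b, drives a receptor for diphtheria toxin, so the toxin removes CD301b-positive mononuclear phagocytes and would remove any other cell in which Mgl2 is active. Both genotypes received diphtheria toxin, 500 ng per dose every 3 days, and tissues were harvested on day 10, so no group without toxin enters any comparison. Apart from the word mouse, nothing in the labels states that replicates came from different animals, and p-values therefore measure the spread between these samples. All values are log2 levels normalized by the authors, and a difference of 1 on this scale is a doubling.

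The integrated stress response begins when kinases that sense amino acid shortage, viral RNA, heme shortage or unfolded protein phosphorylate the translation factor eIF2. Most translation then slows, while translation of the transcription factor ATF4 increases, and ATF4 drives genes such as Ddit3, Trib3, Asns and Fgf21. The unfolded protein response acts at the endoplasmic reticulum (ER) through the sensors PERK, IRE1 and ATF6, of which PERK feeds into ATF4, IRE1 splices the RNA of Xbp1, and ATF6 is cut to a transcription factor. Hepatocytes secrete large amounts of protein and adipocytes secrete adipokines, so both cell types make steady use of ER chaperones. The array reads RNA levels, not eIF2 phosphorylation, ATF4 protein or Xbp1 splicing.

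Upstream sequences are shown because ATF4, ATF6 and XBP1 act through short promoter elements, and the 5 windows that held a match are printed. The 250 bases before each start were taken from RefSeq (mouse build GRCm38.p6), which held a promoter for each of the 10 genes, and were searched on both strands. The searched motifs were the ER stress element (CCAAT, then 9 bases of any kind, then CCACG), the ER stress element II (ATTGG, then any 1 base, then CCACG), the XBP1 element TGACGTGG and the CEBP-ATF element TGATGNAA, in which N is any base. No match overlapped another in the 10 windows. Capitals mark a match to one of them, read 5′ to 3′ on the gene's own strand.
Hspa5, chr2:34771990-34772089, plus strand: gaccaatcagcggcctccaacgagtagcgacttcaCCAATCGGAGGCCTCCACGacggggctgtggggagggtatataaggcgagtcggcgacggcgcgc
Hsp90b1, chr10:86705525-86705664, minus strand: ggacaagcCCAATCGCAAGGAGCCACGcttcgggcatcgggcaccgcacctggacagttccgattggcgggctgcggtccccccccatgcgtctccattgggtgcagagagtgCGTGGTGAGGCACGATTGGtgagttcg
Herpud1, chr8:94386299-94386428, plus strand: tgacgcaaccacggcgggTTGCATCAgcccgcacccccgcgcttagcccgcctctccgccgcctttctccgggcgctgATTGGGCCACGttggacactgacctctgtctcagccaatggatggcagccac
Asns, chr6:7693210-7693289, minus strand: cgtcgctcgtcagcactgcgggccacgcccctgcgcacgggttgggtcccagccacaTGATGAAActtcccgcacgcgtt
Fgf21, chr7:45615551-45615650, minus strand: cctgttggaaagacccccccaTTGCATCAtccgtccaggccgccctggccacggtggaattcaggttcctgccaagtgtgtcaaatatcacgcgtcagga

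The ER stress element stood once in Hspa5, 65 to 47 bases before the start. In Hsp90b1 it stood at 2 places, forward at 212 to 194 bases and reversed at 107 to 89 bases before the start. It was present in 0.113% of 32851 mouse promoters of the same length. The ER stress element II occurred in Herpud1, 52 to 42 bases before the start, and in 0.0304% of all promoters. The CEBP-ATF element occurred in Asns at 23 to 16 bases, in Fgf21, reversed, at 139 to 132 bases and in Herpud1, reversed, at 112 to 105 bases, against 3.45% of all promoters. The XBP1 element, present in 0.563% of promoters, was found in 0 of the 10 windows, and Ddit3, Atf4, Trib3, Xbp1 and Dnajb9 held no match to any of the 4 motifs in this window. A match is a description of letters and says nothing of whether a factor binds there.

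The arrays were checked against their labels first. Mgl2 itself read 4.12 and 4.72 in inguinal fat and 4.25 and 4.19 in epididymal fat of Mgl2-DTR mice, against 7.07 and 7.36 and 7.46 and 7.22 in the wild-type depots. In liver Mgl2 was under the level used here to call a gene dim (5.71) on all arrays of both genotypes. The mean of 8 hepatocyte markers was 12.5 to 12.6 in liver and 5.94 to 7.34 in fat, and that of 7 adipocyte markers was 5.66 to 6.03 in liver and 11.1 to 11.7 in fat. Some arrays stood apart within their group. Markers of skeletal muscle averaged 9.94 in inguinal Mgl2-DTR replicate 1 and 10.4 in inguinal wild-type replicate 2, against 6.49 and 6.62 in the other two inguinal arrays, and 6 markers of epididymal duct, of which 3 passed the filter on dim genes, averaged 10.6 in epididymal Mgl2-DTR replicate 2, against 3.59 to 3.73 in the other three epididymal arrays. Hepatocyte markers averaged 7.34 in epididymal wild-type replicate 2, against 5.94 to 6.16 in the other three epididymal arrays, and pan-macrophage markers were highest in epididymal wild-type replicate 1 (10.98, against 9.43 to 10.3). Of the 10 genes, 9 passed the filter on dim genes and were tested together with 12710 genes in all. Fgf21 did not pass in any tissue.

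**Figure D1:**
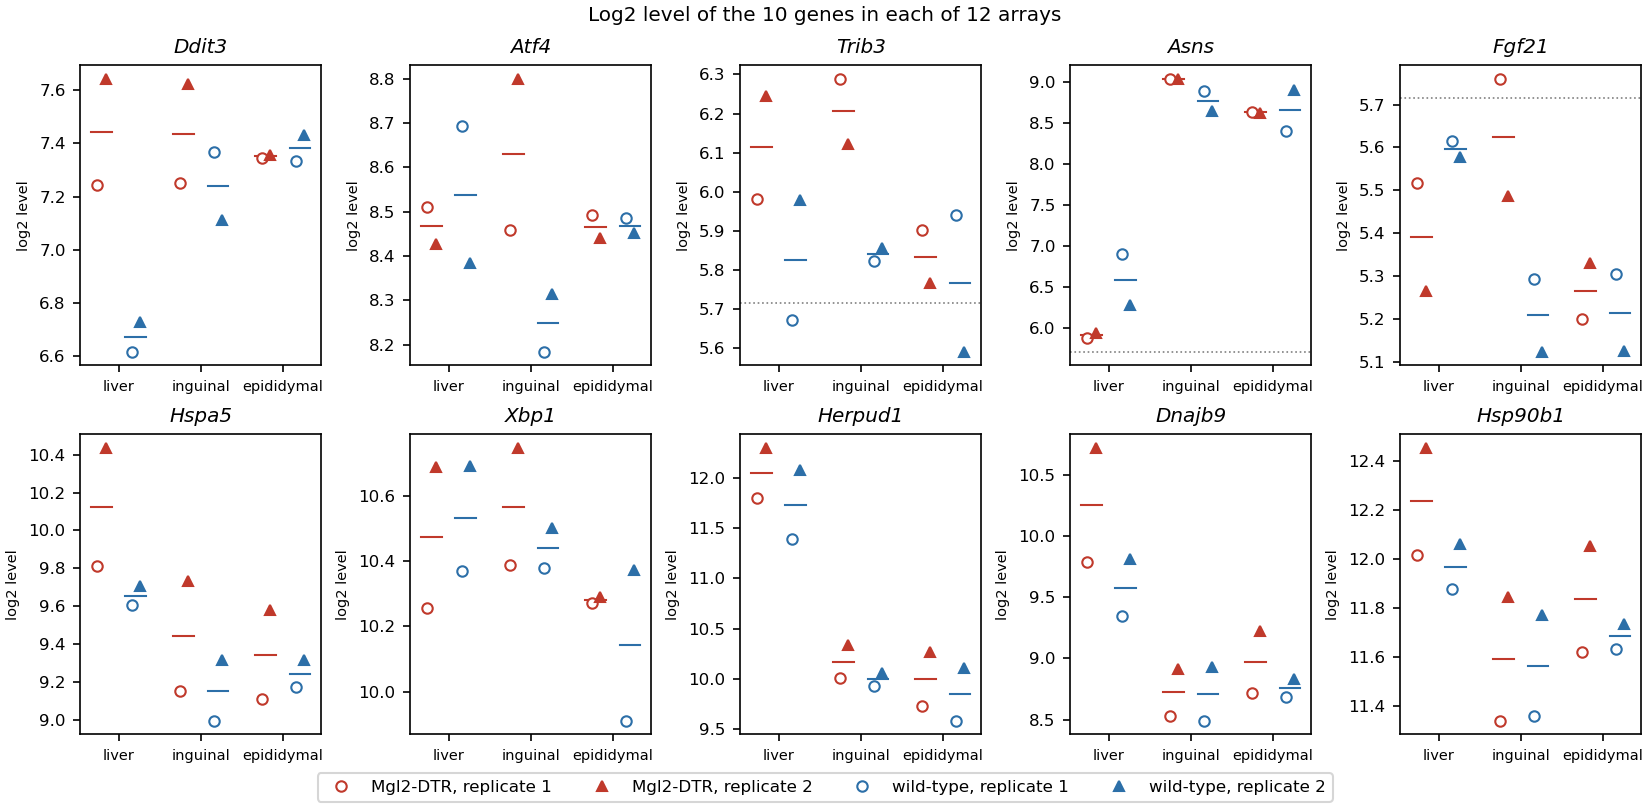
Log2 level (vertical axis, own scale in each panel) of each of the 10 genes in liver, inguinal fat and epididymal fat. Mgl2-DTR arrays are red and stand left of wild-type arrays in blue, open circles are replicate 1, filled triangles replicate 2, short bars the mean of 2 arrays, and the dotted line the level of 5.71 below which a gene was taken as dim. Asns sits between 5.88 and 6.90 in liver and between 8.41 and 9.04 in fat, while Herpud1 sits between 11.4 and 12.3 in liver and between 9.58 and 10.3 in fat.

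Between tissues, Asns and the ER genes that passed the test went different ways. Averaged over genotypes, Herpud1, Dnajb9 and Hspa5 were higher in liver than in both fat depots, and Asns was 5.25-fold lower in liver than in epididymal fat and 6.29-fold lower than in inguinal fat. Hsp90b1 passed as higher in liver against inguinal fat only. Ddit3, Atf4, Trib3 and Xbp1 passed the threshold between no pair of tissues. Of the 9 tested genes 4 passed an adjusted p of 0.05 for liver against epididymal fat, where 66.0% of all tested genes passed, and 5 passed for liver against inguinal fat, where 60.6% did. Neither share of the 9 was above that background. Split by direction, 3 and 4 of the 5 ER genes passed as higher in liver than in epididymal and inguinal fat. Of all tested genes 26.4% and 22.8% did. By sign alone 5 and 4 of the 5 were higher, where 42.2% and 41% of all tested genes were. Asns alone of the 9 passed as lower in liver, where 39.5% and 37.8% of all tested genes did. For inguinal against epididymal fat 0 of 9 passed with limma, 0 of 9 had an unadjusted p under 0.05, and 7.43% of all tested genes passed, with 25.9% at an unadjusted p under 0.05.

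Atf4, the transcription factor that gives the integrated stress response its program, had overlapping levels in the 3 tissues. It read 8.51 and 8.43 in Mgl2-DTR livers and 8.69 and 8.38 in wild-type livers. In inguinal fat it read 8.46 and 8.80 in Mgl2-DTR mice against 8.18 and 8.31 in wild-type mice, and in epididymal fat 8.49 and 8.44 in Mgl2-DTR mice against 8.49 and 8.45 in wild-type mice. The tissues overlapped. The difference between liver and epididymal fat was 0.04 with a 95% interval of -0.21 to 0.28, and that between liver and inguinal fat was 0.06 with an interval of -0.18 to 0.31.

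Asns, asparagine synthetase and a classic ATF4 target, showed the widest separation of the 9. It read 5.88 and 5.95 in Mgl2-DTR livers and 6.90 and 6.28 in wild-type livers. In inguinal fat it read 9.04 and 9.04 in Mgl2-DTR mice and 8.90 and 8.65 in wild-type mice, and in epididymal fat 8.64 and 8.63 in Mgl2-DTR mice and 8.41 and 8.91 in wild-type mice. Every liver array was below every fat array. The difference was -2.39 ± 0.16 (SE) for liver against epididymal fat and -2.65 ± 0.16 for liver against inguinal fat, with limma adjusted p of 8.9e-07 and 4.1e-07.

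Ddit3, which encodes the stress transcription factor CHOP, was lower in liver than in fat among wild-type arrays. In Mgl2-DTR mice it read 7.25 and 7.64 in liver, 7.25 and 7.62 in inguinal fat and 7.35 and 7.36 in epididymal fat, and the tissues overlapped. In wild-type mice it read 6.62 and 6.73 in liver, against 7.37 and 7.11 in inguinal fat and 7.33 and 7.43 in epididymal fat, so liver was lowest without overlap. Averaged over genotypes the difference of liver from epididymal fat was -0.31 ± 0.13 (limma adjusted p = 0.056). Confined to Mgl2-DTR arrays, an option chosen after the data were seen, liver differed from epididymal fat by 0.09 and from inguinal fat by 0.007 (adjusted p = 0.70 and 0.98). Confined to wild-type arrays the differences were -0.71 ± 0.18 (limma adjusted p = 0.0084) and -0.57 ± 0.18 (adjusted p = 0.027). Between genotypes these differences themselves differed by 0.80 for epididymal fat (limma adjusted p = 0.59) and by 0.57 for inguinal fat (adjusted p = 0.71). Neither passed. The liver change against the mean change of both depots, given further on, also missed the threshold.

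Trib3, a pseudokinase induced by ATF4 and CHOP, lay just above the dim level in most arrays, from 5.67 to 6.25 in liver, 5.82 to 6.29 in inguinal fat and 5.59 to 5.94 in epididymal fat. The tissues overlapped. Fgf21, the hormone that liver and fat release under fasting and ATF4 activation, was dim in all tissues, with 5.26 to 5.61 in liver, 5.12 to 5.76 in inguinal fat and 5.12 to 5.33 in epididymal fat. Only inguinal Mgl2-DTR replicate 1 exceeded 5.71. These Fgf21 readings all lay near or below the median of all values, and no background level was measured here against which to judge them.

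Herpud1, an ER membrane protein that helps to remove misfolded proteins, was the ER gene with the largest liver excess among the 5. It read 11.8 and 12.3 in Mgl2-DTR livers and 11.4 and 12.1 in wild-type livers, and 9.58 to 10.3 in the 8 fat arrays. Liver and fat did not overlap. The difference was 1.97 ± 0.21 against epididymal fat (3.92-fold, limma adjusted p = 2.6e-05) and 1.81 ± 0.21 against inguinal fat (3.51-fold, adjusted p = 5.0e-05).

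Dnajb9, a co-chaperone of BiP and a target of XBP1, read 9.79 and 10.7 in Mgl2-DTR livers and 9.34 and 9.81 in wild-type livers. It read 8.53 and 8.91 in inguinal and 8.72 and 9.23 in epididymal fat of Mgl2-DTR mice, and 8.49 and 8.93 in inguinal and 8.68 and 8.83 in epididymal fat of wild-type mice. Liver and fat did not overlap. The liver excess was 2.07-fold over epididymal fat (adjusted p = 0.0026) and 2.30-fold over inguinal fat (adjusted p = 0.0013).

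Hspa5, which encodes BiP, the main Hsp70 chaperone of the ER lumen, read 9.60 to 10.4 in liver and 8.996 to 9.74 in fat, so 1 fat array, inguinal Mgl2-DTR replicate 2, lay among the livers. Its liver excess was 0.60 ± 0.19 over epididymal fat (adjusted p = 0.018) and 0.59 ± 0.19 over inguinal fat (adjusted p = 0.021). Hsp90b1, the ER Hsp90 known as GRP94, read 11.9 to 12.5 in liver and 11.3 to 12.1 in fat. It differed by 0.52 ± 0.17 from inguinal fat (adjusted p = 0.023) and by 0.34 ± 0.17 from epididymal fat (adjusted p = 0.10). These calls were thin. Confined to wild-type arrays, an option chosen after the data were seen, Hspa5 differed by 0.41 from epididymal and 0.50 from inguinal fat (limma adjusted p = 0.21 and 0.15). Confined to Mgl2-DTR arrays it differed by 0.78 and 0.68 (limma adjusted p = 0.033 and 0.059). For Hsp90b1 against inguinal fat the difference was 0.40 in wild-type and 0.64 in Mgl2-DTR arrays (limma adjusted p = 0.19 and 0.052). Without 1 array at a time, the Hspa5 call against epididymal fat was lost on leaving out epididymal Mgl2-DTR replicate 1, liver wild-type replicate 2 or liver Mgl2-DTR replicate 2 (adjusted p = 0.064, 0.052 and 0.070). Both calls against inguinal fat were lost on leaving out inguinal wild-type replicate 1, inguinal Mgl2-DTR replicate 1, liver wild-type replicate 2 or liver Mgl2-DTR replicate 2 (adjusted p = 0.058 to 0.087). A renewed quantile normalization also ended the Hsp90b1 call (0.33, adjusted p = 0.13). Of 28 settings beside the main fit, 4 lost the Hspa5 call against epididymal fat and 7 that against inguinal fat. The Hsp90b1 call against inguinal fat was lost under 8 of 28.

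Xbp1, the substrate of IRE1 and the transcription factor behind much of the ER program, read 10.3 to 10.7 in liver, 10.4 to 10.7 in inguinal fat and 9.91 to 10.4 in epididymal fat. The tissues overlapped. The liver differences were 0.29, with an interval of -0.05 to 0.63, against epididymal fat and -0.0017, with an interval of -0.34 to 0.34, against inguinal fat.

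**Figure D2:**
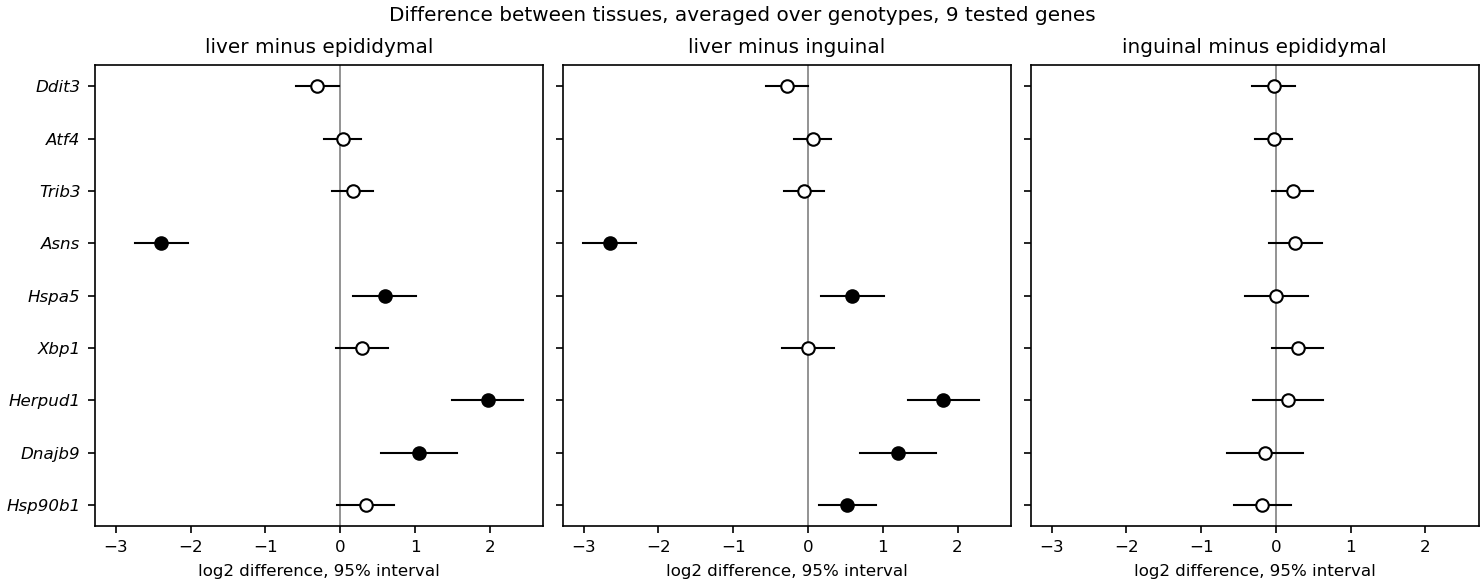
Log2 difference between tissues, averaged over genotypes (horizontal axis), for the 9 tested genes, with 95% intervals as bars and filled points for an adjusted p under 0.05. Asns lies at -2.39 and -2.65 in the panels with liver, Herpud1 at 1.97 and 1.81, and the panel of both fat depots holds no filled point.

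The other genes of these pathways were counted in the same comparisons between tissues. In these pathway counts between tissues, higher or lower means at a limma adjusted p under 0.05 unless sign is named. These lists were chosen with results of these data known, so their counts are a description. Of 28 tested ER chaperones and ER-associated degradation genes, 16 were higher and 1 lower in liver than in epididymal fat. Of all tested genes 26.4% were higher and 39.5% lower there. Against inguinal fat 20 were higher and 1 lower, where 22.8% and 37.8% of all tested genes were. By sign alone 25 were higher and 3 lower in both comparisons, where 42.2% and 41% of all tested genes were higher. The list's median difference was 0.65 and 0.76, against -0.14 over all tested genes in both comparisons. Among them were Ero1b, an oxidase that supports disulfide bond formation (2.18 and 2.62), Hyou1, a large ER chaperone (1.31 and 1.45), Syvn1, the ubiquitin ligase HRD1 (1.48 and 1.42), and Derl2, a component of the retrotranslocation machinery (1.09 and 1.25), given as liver minus epididymal and liver minus inguinal fat.

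Of 26 tested integrated stress response targets, 7 were higher and 16 lower in liver than in epididymal fat, with the same counts against inguinal fat. Of all tested genes 26.4% were higher and 39.5% lower against epididymal fat, and 22.8% and 37.8% against inguinal fat, so the share higher (26.9%) was near the background. The medians were -1.12 and -0.82. The genes higher in liver included Cth and Cbs, the transsulfuration enzymes (4.92 and 4.82 over epididymal fat), and Shmt2, a mitochondrial enzyme of one-carbon metabolism (3.02 over inguinal fat). The genes lower in liver included Psat1, of serine synthesis (-3.56 against epididymal fat), and Nupr1, a stress-induced nuclear protein (-3.32). Asns thus lay in the direction of most of this list and beyond its median.

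The counts that follow are for liver against epididymal fat, where 26.4% of all tested genes were higher and 39.5% lower. Among 14 sensors, kinases and phosphatases, 4 were higher and 5 lower, shares near that background. Creb3l3, a membrane-bound transcription factor known from hepatocytes, was higher (4.09), as was Ern1, which encodes IRE1 (1.26), while Creb3l1, a related factor of secretory and matrix-producing cells, was lower (-2.55), as was Mbtps2, the protease that completes ATF6 cleavage (-0.70). Of 11 aminoacyl-tRNA synthetases, several of them ATF4 targets, 5 were higher and 3 lower, with Tars at 1.79 and Mars1 at 0.88, and Wars at -1.08 and Gars at -0.58. Of 11 genes of the heat shock system, 6 were higher and 2 lower. Among 13 receptors of FGF21 and targets of PPAR-alpha, 9 were higher and 3 lower. Fgfr4, the main hepatocyte FGF receptor, differed by 3.19 and Ppara by 3.31, while Fgfr1, the FGF21 receptor of adipocytes, differed by -3.06. In bulk tissue, more cells of a type and more RNA per cell cannot be told apart.

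Promoter elements were set beside these differences as a description. Here too higher or lower means at a limma adjusted p under 0.05, against each depot. Of 15 other tested genes with an ER stress element, 7 (46.7%) were higher in liver than in both depots, against 20.3% of all tested genes. Of 257 other tested genes with a CEBP-ATF element the share was 26.8%, and of 93 with an XBP1 element it was 24.7%. Of 5 other tested genes with an ER stress element II, 1 (20%) was, near the share of all tested genes. Lower in liver than in both depots were 37% of genes with a CEBP-ATF element and 37.6% with an XBP1 element. Of all tested genes 32.6% were lower. So were 0 of the 15 with an ER stress element and 1 of the 5 with an ER stress element II.

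Between genotypes, 0 of the 9 genes passed in liver, inguinal fat or epididymal fat, or in the average of the 3 tissues (limma, adjusted p of 0.38 or more). Few genes of any kind passed between genotypes, with 0.0708% of all tested genes in liver, 0.197% in inguinal fat, 0.0315% in epididymal fat and 0.0708% in the average. With 2 arrays per group a gene that did not pass may still differ. In epididymal fat the median change of 9 pan-macrophage markers was -1.19, with 0 of the 9 passing. At an unadjusted p under 0.05, 2 of 9 passed in liver (Ddit3 and Asns), 1 in inguinal fat (Atf4), 0 in epididymal fat and 2 in the average (Ddit3 and Trib3). The shares of all tested genes at that level were 5.53%, 6.93%, 6.98% and 7.67%.

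In liver Ddit3 read 7.25 and 7.64 in Mgl2-DTR mice, against 6.62 and 6.73 in wild-type mice. Both Mgl2-DTR livers lay above both wild-type livers. The change was 0.77 ± 0.18 (SE), or 1.71-fold, with a 95% interval of 0.37 to 1.17. Its p of 0.0018 ranked 60 of 12710 in that comparison, and the limma adjusted p was 0.38, so it did not pass. Leaving out any 1 array, and the other settings run, gave 0.57 to 0.97 and adjusted p of 0.31 to 0.9999. Markers of macrophages moved with it. The mean of 9 pan-macrophage markers was 9.33 and 9.21 in Mgl2-DTR livers and 8.74 and 8.65 in wild-type livers, with 0 of the 9 passing, and their part in the Ddit3 difference was not tested.

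Asns in liver lay the other way, at 5.88 and 5.95 in Mgl2-DTR mice and 6.90 and 6.28 in wild-type mice. The genotypes did not overlap, but the wild-type livers differed from each other by 0.62, nearly as much as the change of -0.68 ± 0.22. The p was 0.013 and the limma adjusted p 0.73. Trib3 read 5.98 and 6.25 in Mgl2-DTR livers and 5.67 and 5.98 in wild-type livers, which almost touched, and Hspa5 read 9.81 and 10.4 in Mgl2-DTR livers and 9.60 and 9.71 in wild-type livers. Dnajb9 had a liver change of 0.68 with overlapping genotypes, Mgl2-DTR replicate 1 at 9.79 being below wild-type replicate 2 at 9.81. The remaining liver changes were 0.32 for Herpud1, 0.27 for Hsp90b1, -0.06 for Xbp1 and -0.07 for Atf4, all with overlap. In liver 4 of 9 genes had genotypes that did not overlap (3 higher, 1 lower), against 34.4% of all tested genes (19.2% higher, 15.2% lower).

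In inguinal fat Atf4 read 8.46 and 8.80 in Mgl2-DTR mice, against 8.18 and 8.31 in wild-type mice. The change of 0.38 ± 0.16 (limma adjusted p = 0.70) did not pass. Trib3 read 6.29 and 6.12 in Mgl2-DTR and 5.82 and 5.86 in wild-type inguinal fat, a change of 0.37 ± 0.17. Asns read 9.04 and 9.04 in Mgl2-DTR and 8.90 and 8.65 in wild-type inguinal fat, a change of 0.27 ± 0.22. These 3 genes had genotypes that did not overlap, 3 of 9, all higher, against 46.9% of all tested genes, 36.5% being higher. All 9 genes had a positive inguinal change, from 0.01 for Dnajb9 to 0.38 for Atf4, in a tissue where 70.7% of all tested genes did and the median of all genes was 0.10. After a renewed quantile normalization or cyclic loess all 4 ATF4-pathway genes remained positive, and 3 of the 5 ER genes did. Of all tested genes 56.1% and 50.6% were positive under these 2 settings, so the ER count was near the background. Without inguinal Mgl2-DTR replicate 2, 1 of the 5 ER genes was positive, where 66.3% of all tested genes were. Macrophage markers went the other way here, with a mean of 8.34 and 8.89 in Mgl2-DTR fat and 10.0 and 10.2 in wild-type fat. Their median change was -1.42, with 3 of 9 lower at a limma adjusted p under 0.05, and their part was not tested. Fgf21, in a fit without the filter on dim genes, had an inguinal change of 0.42 ± 0.15 (limma adjusted p = 0.66) between readings of 5.76 and 5.49 in Mgl2-DTR mice and 5.29 and 5.12 in wild-type mice.

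In epididymal fat the genotypes of all 9 genes overlapped, where 29.5% of all tested genes did not. The changes ranged from -0.03 for Ddit3 to 0.22 for Dnajb9. The narrowest interval was that of Atf4, -0.35 to 0.35, and the widest that of Dnajb9, -0.50 to 0.94, so a change of 1 on the log2 scale was outside the interval of each of the 9 genes in epididymal fat.

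**Figure D3:**
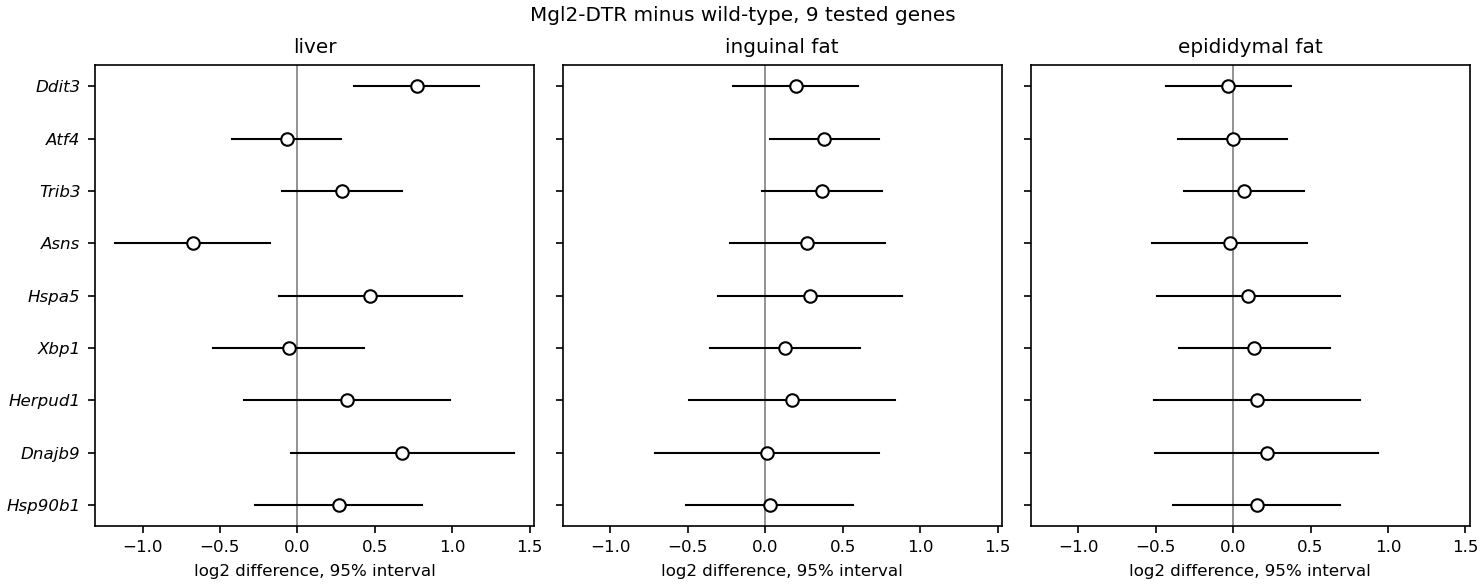
Log2 difference of Mgl2-DTR minus wild-type (horizontal axis) in liver, inguinal fat and epididymal fat for the 9 tested genes, with 95% intervals as bars. No point is filled, as none had an adjusted p under 0.05. In liver Ddit3 lies at 0.77 and Asns at -0.68, both with intervals that do not cross 0.

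The change in liver was also set against that in fat. Set against the average of both depots, the genotype change in liver differed by 0.69 for Ddit3 and by -0.80 for Asns. Neither passed (limma adjusted p of 0.43 or more for each of the 9), 0 of 9 genes passed, and 0.236% of all tested genes did. Ddit3 and Asns had an unadjusted p under 0.05 there, as did 7.94% of all tested genes. For inguinal against epididymal change 0 of 9 passed, 0 of 9 had an unadjusted p under 0.05, and 0 of 12710 genes passed, with 2.86% of all genes at an unadjusted p under 0.05.

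The pathway lists gave 1 call between genotypes. Of 28 ER chaperone and degradation genes 0 passed in any tissue, yet all 28 had a positive change in liver, where 52.2% of all genes did, with a median of 0.16 against 0.01. None of the 28 had an unadjusted p under 0.05. The count was 16 of 28 without liver Mgl2-DTR replicate 2 (median 0.01), 22 of 28 without liver wild-type replicate 1, and 28 of 28 without either of the other two livers. Leaving out 1 liver also leaves the replicate numbers unequal between genotypes, and the part of that in these counts was not tested. Between livers of the same number, 25 of 28 were higher in Mgl2-DTR replicate 1, where 63.9% of all genes were, and 26 of 28 in Mgl2-DTR replicate 2, where 41.2% were. The list's median was 0.09 and 0.21 there, against 0.09 and -0.06 over all genes. In inguinal pairs 1 and 2 the counts were 15 and 25 of 28 (66.2% and 66.8% of all genes). In epididymal pairs they were 7 and 22 (55% and 42.9%). With all arrays 21 of 28 were positive in inguinal and 18 in epididymal fat, against 70.7% and 51% of all genes. Of 26 integrated stress response targets 0 passed in any tissue, and 14 in liver, 21 in inguinal fat and 20 in epididymal fat had a positive change, against 52.2%, 70.7% and 51% of all tested genes. Without epididymal wild-type replicate 1 the epididymal count was 14 of 26, with a median of 0.0078 against 0.15 with all arrays. Sesn2, a stress-induced regulator of mTORC1 signalling, had the smallest p of that list in inguinal fat, at 8.21 and 7.98 in Mgl2-DTR mice and 7.20 and 7.28 in wild-type mice (0.85 ± 0.25, limma adjusted p = 0.56). Eif2ak3, which encodes PERK, read 7.46 and 8.20 in Mgl2-DTR livers and 7.18 and 7.28 in wild-type livers (0.59 ± 0.22, adjusted p = 0.78). The call was Cyp4a14, a fatty acid hydroxylase and PPAR-alpha target, which rose in liver to 10.7 and 10.9 in Mgl2-DTR mice, against 8.69 and 9.15 in wild-type mice (1.88 ± 0.21, adjusted p = 0.015). It was the only one of 13 FGF21-receptor and PPAR-alpha genes to pass. Of 11 synthetases, 14 sensors and 11 heat shock genes 0 passed in any tissue.

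**Figure D4:**
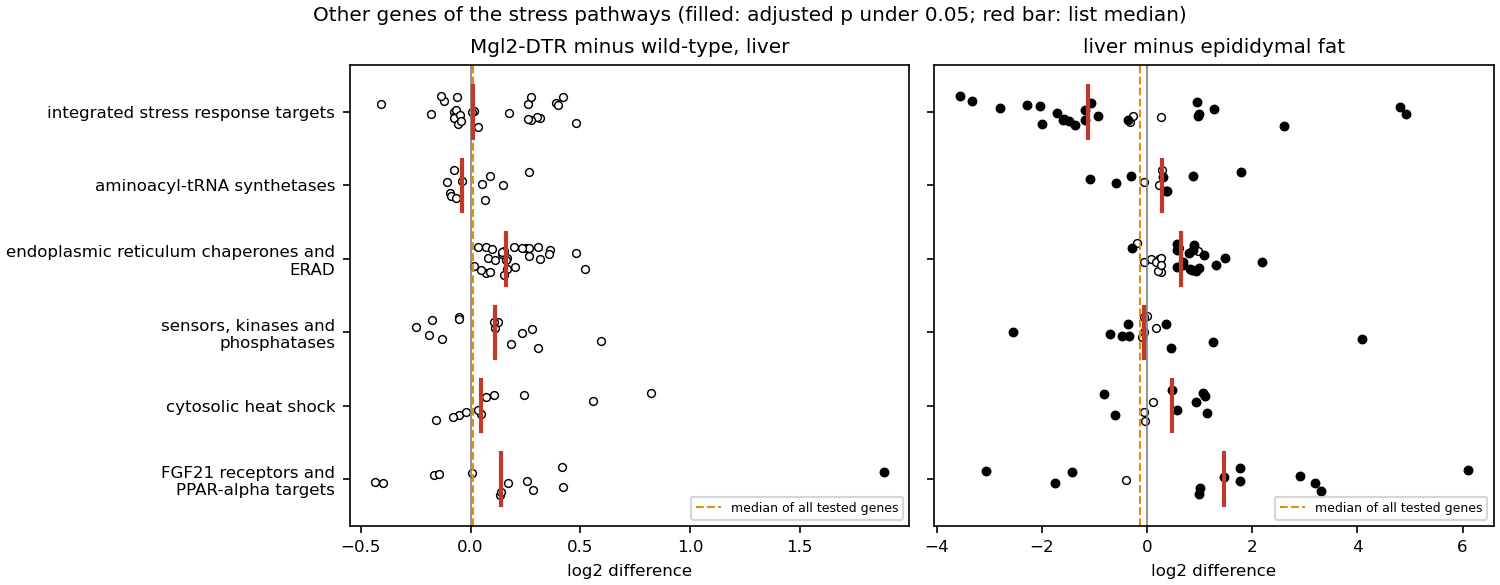
Log2 difference (horizontal axis) of each tested gene of 6 pathway lists, for Mgl2-DTR minus wild-type in liver (left) and liver minus epididymal fat averaged over genotypes (right). Filled points have an adjusted p under 0.05, red bars are list medians and the dashed line is the median of all tested genes. In the left panel Cyp4a14 at 1.88 is the single filled point, and in the right panel the median is 0.65 for ER chaperones and -1.12 for integrated stress response targets.

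The 5 ER genes varied together from array to array, and the spread followed the replicate number in the labels. Hspa5, Hsp90b1, Dnajb9, Herpud1 and Xbp1 were each higher in replicate 2 than in replicate 1 in all 6 groups. This held for 5 of 5 ER genes and for 0 of the 4 tested ATF4-pathway genes, while 2.0% of all 12710 tested genes showed it and 2.2% showed the opposite. Of those 4, Ddit3 was higher in replicate 2 in 5 of the 6 groups, Trib3 in 3, Asns in 3 and Atf4 in 2. The pattern was noticed in these values and has no test of its own. The labels do not say what the number stands for.

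For Hspa5 replicate 2 exceeded replicate 1 by 0.62 in Mgl2-DTR and 0.10 in wild-type livers, by 0.58 in Mgl2-DTR and 0.32 in wild-type inguinal fat, and by 0.47 in Mgl2-DTR and 0.15 in wild-type epididymal fat. For Dnajb9 the gaps in Mgl2-DTR and wild-type tissue were 0.93 and 0.46 in liver, 0.39 and 0.44 in inguinal fat, and 0.51 and 0.14 in epididymal fat. Herpud1 had its largest gap in wild-type livers (0.69) and its smallest in wild-type inguinal fat (0.13), and the gaps ranged from 0.11 to 0.50 for Hsp90b1 and from 0.02 to 0.46 for Xbp1. Against the mean of its tissue, the mean of the 5 ER genes ran in the same order in each tissue. Mgl2-DTR replicate 2 was highest, at 0.46 in liver, 0.28 in inguinal and 0.27 in epididymal fat. Wild-type replicate 2 came next at 0.01, 0.08 and 0.06, then Mgl2-DTR replicate 1 at -0.12, -0.15 and -0.12, and wild-type replicate 1 was lowest at -0.34, -0.20 and -0.21. Between arrays of the same number, a comparison added after the data were seen, the mean of the 5 ER genes was higher in Mgl2-DTR than in wild-type tissue in each case. The difference for replicates 1 and 2 was 0.22 and 0.45 in liver, 0.05 and 0.20 in inguinal fat, and 0.09 and 0.21 in epididymal fat. In the same pairs the median of all tested genes was 0.09 and -0.06 in liver, 0.10 and 0.10 in inguinal fat, and 0.04 and -0.04 in epididymal fat. For inguinal replicate 1 the ER genes thus lay below the shift of all genes. Each of these 6 differences of the ER genes rests on 1 array per genotype and has no test. The labels do not say whether the 3 tissues of a number share an animal.

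**Figure D5:**
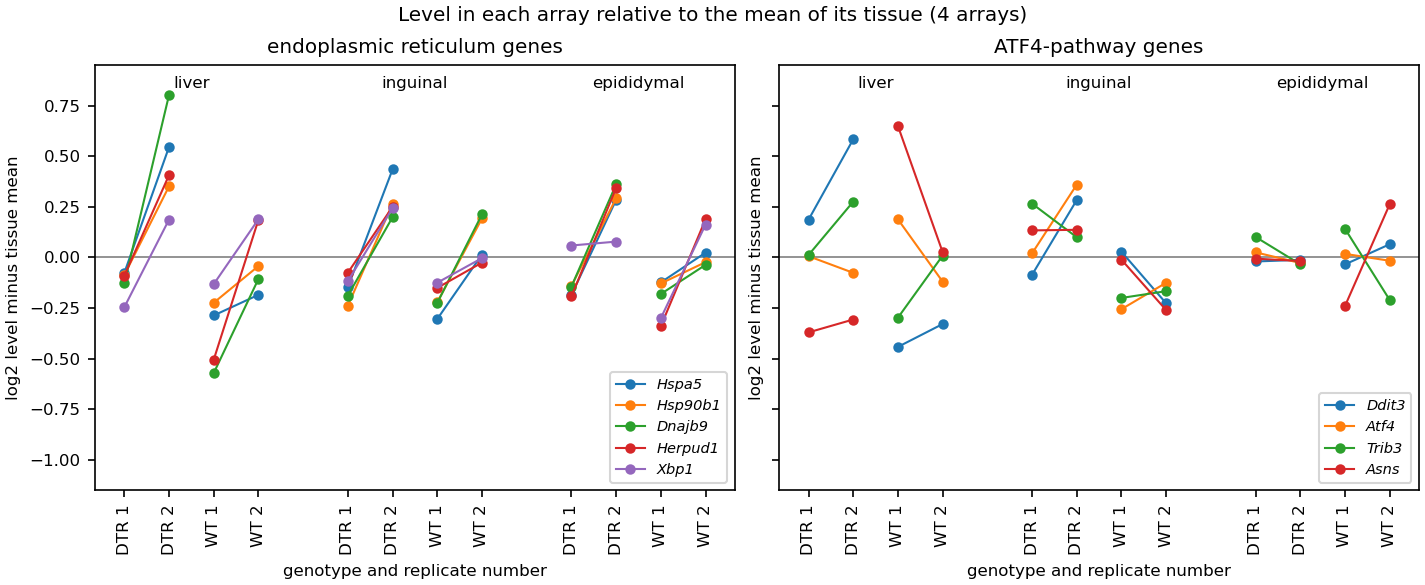
Log2 level minus the mean of the 4 arrays of the tissue (vertical axis) in each array, for 5 ER genes (left) and 4 ATF4-pathway genes (right), with lines joining the replicates of a group. In the left panel replicate 2 lies above replicate 1 on each line, and Dnajb9 reaches 0.80 in liver Mgl2-DTR replicate 2. In the right panel the lines run both ways.

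The residual standard deviation within groups was above the median of all genes (0.19) for each ER gene, at 0.38 for Dnajb9, 0.34 for Herpud1, 0.30 for Hspa5, 0.27 for Hsp90b1 and 0.23 for Xbp1. It was below that median for Ddit3 (0.18), Trib3 (0.17) and Atf4 (0.14), and above it for Asns (0.24). Across the 12 arrays, with tissue means removed, Pearson's r was 0.92 between Hspa5 and Hsp90b1, 0.90 between Hspa5 and Dnajb9, and 0.84 between Dnajb9 and Herpud1. For Ddit3 it was 0.74 with Hspa5, 0.71 with Dnajb9, 0.58 with Herpud1, 0.54 with Hsp90b1 and 0.28 with Xbp1, and 0.55 with Trib3, 0.07 with Atf4 and -0.51 with Asns. These correlations describe 12 arrays that share groups and a normalization.

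The gap by replicate number extended to other ER genes. Of the 28 ER chaperone and degradation genes, 7 (25.0%) were higher in replicate 2 in all 6 groups. They were Dnajc3, Hyou1, Manf, Creld2, Erp44, Txndc5 and Selenos, with mean gaps of 0.87 for Creld2, 0.52 for Hyou1 and 0.43 for Manf, secreted or lumenal proteins of the ER. Of 26 integrated stress response targets 2 did, Cbs and Chac1, a glutathione-degrading enzyme induced by ATF4 and CHOP (0.58). Genes carrying an ER stress element did so in 3 of 15, and cytosolic heat shock genes in 2 of 11 (18.2%), so the pattern was not confined to ER genes. The arrays that stood apart carried both numbers, and their part in this pattern was not tested. Muscle markers were high in inguinal Mgl2-DTR replicate 1 and wild-type replicate 2, and duct markers were high in 1 of the 6 replicates numbered 2. Hepatocyte markers were highest in wild-type replicate 2 within epididymal fat (7.34) and within inguinal fat (7.06). Pan-macrophage markers were highest in wild-type replicate 1 within epididymal fat (10.98). Plasma cell markers, from cells rich in ER, averaged 5.14 to 5.81 in all 12 arrays, near the dim level of 5.71. Of that list Derl3, an ER degradation gene named after its values were seen, was higher in replicate 2 in all 6 groups. It read 7.70 in replicate 2 against 6.08 in replicate 1 of Mgl2-DTR livers, and 7.45 against 5.96 in wild-type livers. In Mgl2-DTR epididymal fat it read 7.64 against 5.33, the 7.64 being in the array high in duct markers. The other pairs lay under the dim level. They were 5.29 against 5.22 in wild-type epididymal fat, 5.45 against 5.12 in Mgl2-DTR and 5.12 against 4.95 in wild-type inguinal fat.

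Genes of most similar pattern were ranked by Pearson's r over the 12 tissue-centred arrays. Hspa5 was followed by Hspa13, a microsomal Hsp70 relative (0.95), Chac1 (0.94), Manf (0.94), Ap1ar (0.93) and Hsp90b1 (0.92). Ddit3 was followed by Cog7, Serpina7, Zfp142, Cxcl1 and Fbxo4 (0.91 to 0.93). Fgf21 was followed by Emc1, Acox2, Diras1, Adamtsl2 and Rai1 (0.92 to 0.94), a ranking made on readings near the dim level. With 12710 genes ranked, such values arise at the top of any list and are given as a description.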

How the data were processed

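The 12 arrays hold log2 values, deposited by the authors as 1 normalized table, with array medians of 5.19 to 5.28. Per the submitters' processing notes, limma was used. How background was corrected and arrays normalized is not given in the sources used here, and scanner files were not used. Of 41345 probes 23521 carry 1 gene symbol, and the brightest probe of a gene was used. Genes with a tissue mean above 5.71, the median of all values of single-symbol probes, in at least 1 tissue were tested, 12710 in all. This removed Fgf21.

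All 12 arrays were fitted with limma 3.58.1 in R 4.3.3, with 6 group means, 6 residual degrees of freedom and eBayes moderation. The two-sided tests were adjusted by Benjamini-Hochberg over the tested genes within each of 9 comparisons, with a threshold of 0.05. Only 2 arrays per group limit the precision. The fit was checked on simulated data. The main fit did not pair the genotypes by replicate number, whose meaning the labels do not give. Promoters came from the RefSeq GRCm38.p6 table.

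The 10 genes, the pathway and marker lists and the tests were chosen with earlier results of these data known. Named beside the 10 genes were, per list and comparison, up to 4 that passed with the largest change, or 3 with the smallest p, and the 5 genes of most similar pattern for Ddit3, Fgf21 and Hspa5. Naming the genes of the replicate-number pattern followed a look at their values. Alternatives stand in the closing section.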

Additional observations from a re-analysis of the deposited data

Results flagged for a closer look

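The change of Asns ran in opposite directions in liver and inguinal fat, with the genotypes apart in both tissues. Asns read 5.88 and 5.95 in Mgl2-DTR livers, against 6.90 and 6.28 in wild-type livers, and 9.04 and 9.04 in Mgl2-DTR inguinal fat, against 8.90 and 8.65 in wild-type inguinal fat. The liver change minus the inguinal change was -0.95 ± 0.31 (SE), and the limma adjusted p over all tested genes was 0.58, so the difference did not pass.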

How the results depend on the processing

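In the 6 comparisons that involve genotype, 0 of the 9 tested genes passed under every setting run. Those settings were dim genes kept in, a stricter filter at the 75th percentile (7.57, which drops Ddit3 and Trib3), all probes, the next brightest probe, renewed quantile normalization, cyclic loess, eBayes with trend and robust, array weights, 2 forms of a replicate block, an adjusted p under 0.10, only the arrays compared, and leaving out each array, both inguinal arrays high in muscle markers, or epididymal Mgl2-DTR replicate 2 (high in duct markers) with wild-type replicate 1 (highest in macrophage markers). The count for liver against epididymal fat was 3 to 5 on leaving out each array in turn (4 with all), and that for liver against inguinal fat was 3 to 5 (5 with all), with 3 without inguinal wild-type replicate 1 or without liver wild-type replicate 2. It was also 3 with Mgl2-DTR arrays only, an option added after the data were seen. Asns and Herpud1 kept their liver calls under all settings, Dnajb9 lost the one against epididymal fat with wild-type arrays only (adjusted p = 0.054), and Ddit3 passed against epididymal fat under 6 settings, with cyclic loess for one (-0.35, adjusted p = 0.040), and against inguinal fat under 5, without both inguinal arrays high in muscle markers for one (-0.44, adjusted p = 0.045). Against epididymal fat Hsp90b1 passed with the replicate block within tissue (0.34, adjusted p = 0.034) and Xbp1 without epididymal wild-type replicate 2 (0.41, adjusted p = 0.042). Over all tested genes, the deviations of same-numbered arrays of the 2 genotypes correlated at 0.09 in liver, -0.12 in inguinal and 0.05 in epididymal fat. The main fit did not pair them. An r over all genes does not show how a smaller set behaves, and the 5 ER genes were higher in replicate 2 in all 6 groups. With the replicate block 0 genes of the 9 passed between genotypes, 5 passed for liver against each depot, and 2 genes of all tested passed in liver (9 without it), 19 in inguinal fat (25), 1 in epididymal fat (4), 5 in the average (9) and 14 for liver against fat change (30). A crossed block in inguinal fat, added after the data were seen, gave 24 genes in all and 0 of the 9. Over all settings the calls between genotypes ranged from 1 to 16 in liver, 0 to 55 in inguinal fat, 0 to 763 in epididymal fat, 5 to 297 in the average, 0 to 244 for liver against fat change and 0 to 123 for inguinal against epididymal change. Those between tissues ranged from 5325 to 11097, 5095 to 8707 and 190 to 2265 for liver against epididymal, liver against inguinal and inguinal against epididymal fat (8384, 7705 and 944 as reported). The extremes of 763, 297 and 244 came without epididymal wild-type replicate 2, the array with the highest hepatocyte markers in its tissue. Signal over background limits Fgf21, which was dim throughout, and Trib3, which was near the dim level.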
